A study of Arabidopsis thaliana with 8 samples.

Results

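The genes described here are those with less transcript in ago1-27 than in wild-type Arabidopsis thaliana shoot apices, and more transcript once a miR156 transgene was added to the se-1 mutant. They were chosen on those same signals. A probe set, the group of oligonucleotide probes that reports 1 transcript on the array, became a member when its mean log2(signal + 16) over all 8 arrays was above 5, ago1-27 lay at least 0.6 below Col-0 with both ago1-27 arrays below both Col-0 arrays, and se-1 p35S::MIR156 lay at least 0.4 above se-1. These thresholds found 191 probe sets. Of these, 13 were set aside by name: PYK10, JAL22, JAL33, JAL34, GTR2, DFR, AT4G14090, BGLU46, BGLU47, COR47, SNZ, AT3G19550 and a probe set with no listed gene. That left 178 members of 22746 probe sets other than controls. The annotation used here lists 1 gene for 75 members, which makes 74 genes because AT1G31710 has 2 member probe sets, and no gene for the other 103. A gene was listed for 42.1% of the members and for 61.6% of all probe sets, so most of the set can be followed only as unnamed probe sets.

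All plants were grown in short days for 20 days, and RNA came from their vegetative apices, with 2 arrays for each of 4 genotypes. Col-0 is the wild-type accession. The line ago1-27 carries a weak allele of ARGONAUTE1 (AGO1), and se-1 a weak allele of SERRATE (SE). The line se-1 p35S::MIR156, called the MIR156 line below, is se-1 with a transgene in which the 35S promoter of a plant virus, active in most cell types, drives a miR156 precursor. The transgene was thus studied only in plants that also carry se-1, and the number of transgenic lines is not stated in the labels. The labels also do not say whether apices were pooled or whether replicate arrays came from separate plants, so a p-value here reflects no more than the spread among these arrays.

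AGO1 is the protein that holds a microRNA and brings it to the transcripts it represses, and SE helps the Dicer enzyme DCL1 cut microRNAs out of their precursors. miR156 represses SPL transcription factors and keeps plants in the juvenile phase, and its level falls as the plant ages. A direct target of a microRNA is usually repressed less when AGO1 is weak and repressed more when the microRNA is abundant, so the direction that defines this set is the reverse of the one usual for direct targets of miR156. The arrays did not measure miR156 itself, and neither AGO1 nor any SPL target of miR156 in the lists used has a listed probe set.

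Replicate arrays had like overall signals, with medians over all probe sets between 76.6 and 82.4. As background level of an array, the brightest of its 27 probe sets for bacterial spike transcripts was used, which lay between 14.2 and 34.1. The actin 3'/5' signal ratio, which rises when RNA is degraded or copied less far, was 4.83 and 4.40 for ago1-27. The Col-0 arrays gave 3.91 and 2.81, the se-1 arrays 2.97 and 4.22, and the MIR156 arrays 3.26 and 3.48, so both ago1-27 arrays stood above the other 6. The GAPDH ratio did not set them apart in the same way: it was 1.55 and 1.41 for ago1-27 and between 1.18 and 1.43 on the other arrays. The part of these ratios in the low ago1-27 signals was not tested. The tissue could hardly be checked by its markers: of 10 shoot meristem markers only CLV3 has a probe set, and it was within background on 7 arrays and reached 25.7 on 1 array of the MIR156 line. Of 11 root markers only PYK10 and EXPA7 have one. EXPA7, a root hair gene, was within background on all 8 arrays. PYK10, which is abundant in roots and also present in seedling shoots, moved with the members: the summed signal of these 2 markers was 1650 to 1682 in Col-0, 127.5 to 214 in ago1-27, 642 to 943 in se-1 and 1546 to 2338 in the MIR156 line. Its part in the results was not tested. In these bulk samples, fewer cells of a type and less RNA per cell cannot be told apart.

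Across the members, the typical signal was lowest in ago1-27 and highest in the MIR156 line. The median signal was 165 and 166 on the Col-0 arrays, 70.0 and 70.9 on the ago1-27 arrays, 115 and 118 on the se-1 arrays, and 229 and 211 on the MIR156 arrays. The difference between ago1-27 and Col-0 had a median of -0.86 and ran from -4.53 to -0.60, all differences being on the log2(signal + 16) scale. The difference between the MIR156 line and se-1 had a median of 0.63 and ran from 0.40 to 2.02. These 2 differences chose the members and are given as a description only. Members varied somewhat more between replicates than other probe sets did: for Col-0, ago1-27, se-1 and the MIR156 line, their median absolute replicate difference was 0.24, 0.35, 0.30 and 0.26, against 0.20, 0.25, 0.21 and 0.19 over all 16466 probe sets with a mean above 5. Both ago1-27 arrays were within background for 39 members, both se-1 arrays for 10 and both Col-0 arrays for 2, and no MIR156 array was within background for any member. For the members within background in ago1-27 the size of the fitted fall depends on the pseudocount, and it is no bound.

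The fall in ago1-27 and the rise with the transgene were measured on separate arrays. Of 614 probe sets that fell in ago1-27 by the rule, 31.1% rose by at least 0.4 with the transgene and 6.51% fell by at least 0.4. Over all probe sets with a mean above 5, 6.64% rose and 9.24% fell by as much. The choice of the 614 did not use the difference with the transgene. These shares are a description with no test. The mirror image of the rule, with no gene set aside, found 171 probe sets. The limma fit over all tested probe sets called 0.911% of them lower in ago1-27 than in Col-0 and 0.22% higher in the MIR156 line than in se-1. The same fit called 60 members lower in ago1-27, 13 higher with the transgene, and 9 in both, and since these contrasts chose the members nothing is read from those counts. Nor is anything read from the 156 members whose MIR156 arrays both lay above both se-1 arrays, a separation seen in 17.0% of all probe sets with a mean above 5. At the edges of the rule, AT2G22510 and AT5G17370 entered with ago1-27 differences of -0.601 and -0.602, and AT2G27500 stayed out at -0.599. AT3G23570 entered with a rise of 0.408 and AT3G23090 stayed out at 0.399.

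**Figure D1:**
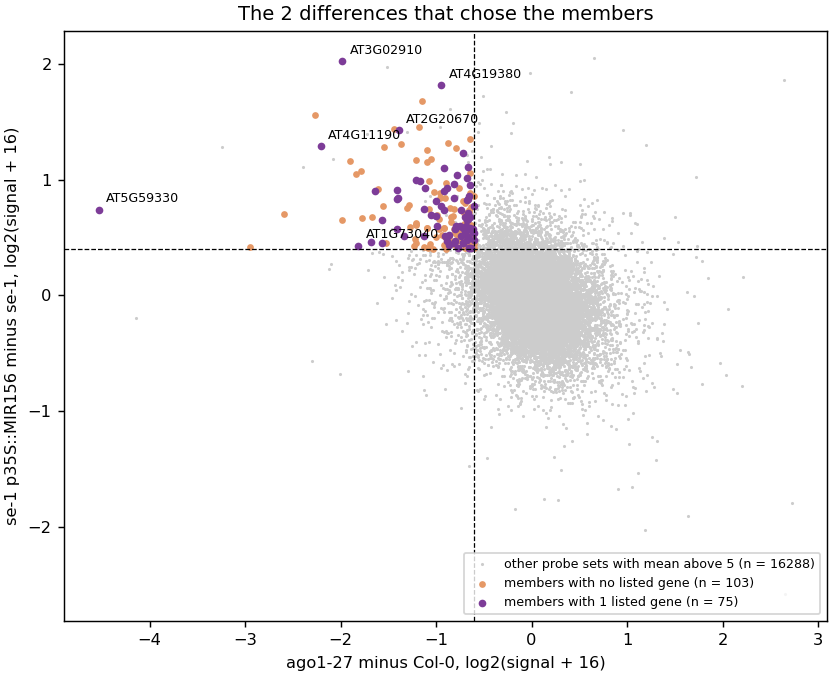
Each point is 1 probe set; the horizontal axis is ago1-27 minus Col-0 and the vertical axis is the MIR156 line minus se-1, both as differences of mean log2(signal + 16) over 2 arrays each. Dashed lines mark the thresholds of -0.6 and 0.4; the 178 members fill the upper left corner by construction, with AT5G59330 farthest left at -4.53 and AT3G02910 highest at 2.02, and the grey points inside the corner are probe sets set aside by name or with overlapping arrays.

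The rule does not fix where the se-1 and MIR156 signals lie against wild type, although those values share arrays with it and are therefore only described. In se-1, both arrays were below both Col-0 arrays for 85 members, above them for 16, and overlapping for 77. Over all probe sets with a mean above 5, 19.8% lay wholly below and 22.9% wholly above, so the members lay below Col-0 in se-1 more often (47.8%). The rule favours high Col-0 and low se-1 signals, which pushes members in this direction, so nothing is read from the excess. In the MIR156 line, both arrays were above both Col-0 arrays for 113 members, or 63.5%, overlapping for 53 and below for 12, while 18.4% of all probe sets lay wholly above and 22.6% wholly below. The median difference from Col-0 was -0.31 in se-1 and 0.41 in the MIR156 line, against 0.02 and -0.02 over all. The required rise of 0.4 over se-1 by itself places a member whose se-1 signal equals Col-0 above Col-0 in the MIR156 line. Both ago1-27 arrays were below both se-1 arrays for 119 members and above them for 3 (21.6% and 21.7% of all probe sets), with a median ago1-27 minus se-1 difference of -0.59.

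Combining both positions gave 6 patterns. The most common, with 63 members, had se-1 overlapping Col-0 and the MIR156 line above it: the medians against Col-0 were -0.12 and 0.62. EXLA1, EXLA3, GTR1, UBC16 and AT2G20670 are among them. In 39 members se-1 lay below Col-0 and the MIR156 line overlapped it, with medians of -0.60 and -0.06, and AT5G59330, PR-1-LIKE and AT1G74460 belong here. In 34 members se-1 lay below and the MIR156 line above Col-0, with medians of -0.42 and 0.44, as for NAI2, AT3G02910, AT4G11190 and TUB1. In 16 members both lines lay above Col-0, with medians of 0.40 and 1.09. The genes are AT5G19110, AT1G31710, AT1G52100, AT1G03620 and AT5G38710. For AT1G31710 this holds on the brighter of its probe sets, while the dimmer is among the 63 with se-1 overlapping Col-0. In 12 members both lines lay below, with medians of -1.15 and -0.43, among them AT1G73040, AT3G20370, AT4G38540 and THO7. The remaining 14 overlapped Col-0 in both lines.

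**Figure D2:**
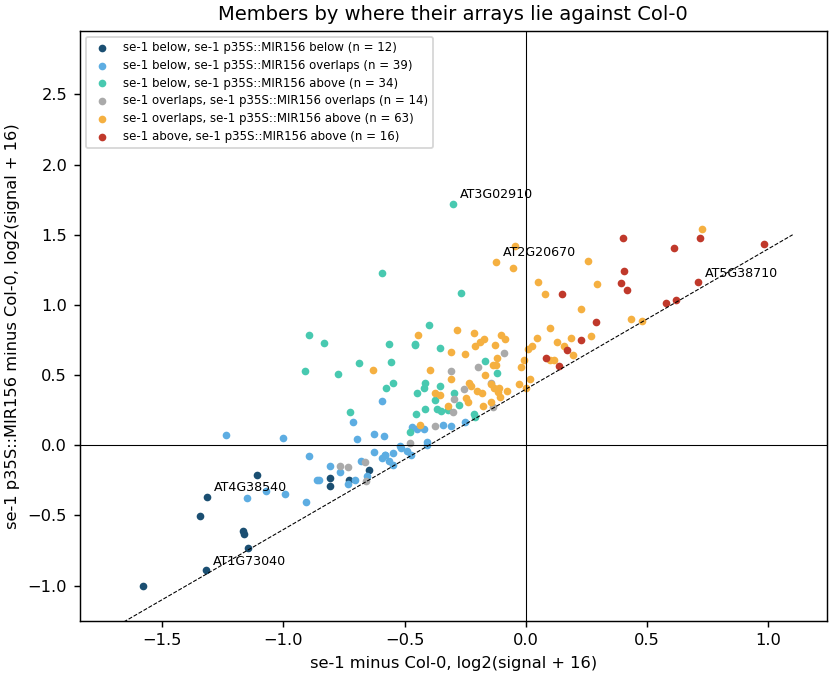
Each point is 1 of the 178 members, with se-1 minus Col-0 on the horizontal axis and the MIR156 line minus Col-0 on the vertical axis (differences of mean log2(signal + 16)); colours give whether both arrays of a line lie below or above both Col-0 arrays or overlap them. No member can lie below the dashed line, because the rule requires a rise of 0.4; 138 members lie above 0 on the vertical axis and 142 lie left of 0 on the horizontal axis.

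One contrast among the 4 genotypes, the mean of se-1 and the MIR156 line minus the mean of Col-0 and ago1-27, shares no error with the differences that chose the members, and it was tested with limma. The demand that ago1-27 and Col-0 arrays not overlap does use the replicate spread that the test also uses. The contrast is called the SE contrast below, and it asks whether the lines with the se-1 allele had more or less transcript than those with wild-type SE. Of the 170 members bright enough to be tested, 70 were higher in the se-1 lines and 1 was lower at a Benjamini-Hochberg adjusted p under 0.05. Over all 15922 tested probe sets, 3.47% were called higher and 1.71% lower, against 41.2% of the tested members called higher. The contrast has a median of 0.52 in members and -0.02 over all probe sets with a mean above 5. Its size is tied to the rule by arithmetic: a member with se-1 exactly at the Col-0 level has at least 0.5 here, because ago1-27 is low by choice and the MIR156 line high, so the count does not show that the se-1 allele raised these transcripts. Of the 71 members called, 67 had both MIR156 arrays above both Col-0 arrays, and 14 had both se-1 arrays below them. Without Col-0 replicate 1 the count of members called higher was 45.

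**Figure D3:**
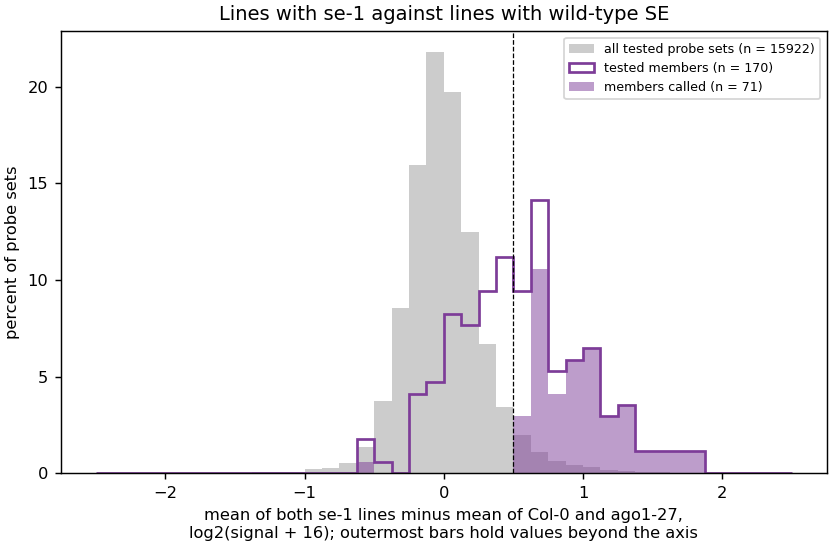
The horizontal axis is the mean of se-1 and the MIR156 line minus the mean of Col-0 and ago1-27 on the log2(signal + 16) scale and the vertical axis the percent of probe sets; grey bars are all 15922 tested probe sets, the outline is the 170 tested members, and filled bars are the 71 members called. The dashed line at 0.5 is the smallest value a member can have when se-1 equals Col-0. The median over all 178 members, tested or not, is 0.52.

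Lipid transfer proteins are small secreted proteins that bind lipids and include carriers for the plant surface. AT5G59330, of this family, showed the deepest fall. Its signal was 482 and 430.0 in Col-0, 3.82 and 4.99 in ago1-27, 190.4 and 228 in se-1, and 457 and 282 in the MIR156 line. Both ago1-27 arrays were within background, at least 16.7-fold below Col-0, and the higher of the MIR156 arrays lay within the Col-0 range. The SE contrast was 1.57 (SE 0.158, adjusted p = 3.1e-05), although both se-1 arrays lay below Col-0. Both se-1 lines averaged below Col-0, by differences of -1.07 in se-1 and -0.33 in the MIR156 line. The positive contrast thus comes from the ago1-27 fall that chose this member, and it shows no rise over wild type in the se-1 lines.

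The related AT4G33550 followed another course. Its signal was 99.7 and 90.8 in Col-0, 24.3 and 41.4 in ago1-27, 111 and 91.9 in se-1, and 215 and 223 in the MIR156 line. The se-1 arrays overlapped Col-0, and both MIR156 arrays lay above every other array, with an SE contrast of 1.18 (SE 0.157, adjusted p = 0.000339). AT3G18280, also of this family, was brighter: 852 and 959 in Col-0, 269.9 and 402 in ago1-27, 778 and 666 in se-1, and 1141 and 1022 in the MIR156 line. Its SE contrast was 0.67 (adjusted p = 0.00887), a call lost when Col-0 replicate 1 (adjusted p = 0.0619) or MIR156 replicate 1 (0.0536) was left out. Against Col-0, se-1 lay at -0.32 and the MIR156 line at 0.25 for AT3G18280. Its contrast thus rests largely on the ago1-27 fall of -1.41 that chose it. AT1G62790 and AT2G18370, of the same family, had falls in ago1-27 of -0.66 each and rises of 0.41 and 0.51.

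Enzymes of lipid-related families were also among the members, and whether they act on surface lipids was not tested. AT4G19380 encodes a protein of the long-chain fatty alcohol oxidase family, and its signal was 41.7 and 31.1 in Col-0, 10.4 and 11.8 in ago1-27, 24.6 and 13.5 in se-1, and 117 and 95.2 in the MIR156 line. Its rise with the transgene, 1.82, was exceeded among members with a listed gene only by that of AT3G02910. The ago1-27 arrays were within background, at least 1.32-fold below Col-0, and 1 se-1 array was too. The SE contrast of 0.79 (adjusted p = 0.0294) was lost in 6 of the 8 fits that left out 1 array. AT1G74460, a GDSL-type lipase gene, was at 70.2 and 50.9 in Col-0, 6.61 and 8.95 in ago1-27, 41.7 and 21.6 in se-1, and 43.9 and 52.3 in the MIR156 line, which did not pass Col-0, and its SE contrast was 0.36 (adjusted p = 0.388). For AT1G74460 too, both ago1-27 arrays and 1 se-1 array were within background. Of the 7 members in this group, which was formed after values were seen, 4 were called higher in the SE contrast, beside 41.2% of all tested members and 3.47% of all probe sets.

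Expansins loosen cell walls during growth, and the expansin-like proteins share their fold. EXLA1 and EXLA3 are neighbours on chromosome 3 with no protein-coding gene between them, and both are members. EXLA1 had signals of 78.0 and 159.9 in Col-0, 19.6 and 50.4 in ago1-27, 94.3 and 96.1 in se-1, and 163 and 229 in the MIR156 line. EXLA3 had 56.4 and 65.9 in Col-0, 1.35 and 23.1 in ago1-27, 45.2 and 67.6 in se-1, and 77.9 and 86.2 in the MIR156 line. Both ago1-27 arrays of EXLA3 and 1 of EXLA1 were within background. In both genes se-1 overlapped Col-0 and the MIR156 arrays lay above it. The SE contrasts were 0.95 (adjusted p = 0.0191) and 0.90 (adjusted p = 0.0349), and each call depended on single arrays, ending without Col-0 replicate 1 at adjusted p of 0.121 and 0.139.

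The other probe sets of that family did not all do the same. EXLB1 was at 32.2 and 37.1 in Col-0, 2.15 and 40.1 in ago1-27, 46.3 and 32.3 in se-1, and 103 and 109.7 in the MIR156 line. Its difference with the transgene was 1.15, but its ago1-27 arrays straddled Col-0, which keeps it out of the set. EXLA2 had differences of -0.21 and 0.09 and stayed out by size. The other members with cell wall roles were AT4G18340, a glucan hydrolase of glycosyl hydrolase family 17 (-1.05 and 0.69), and AT1G56710, a pectin lyase-like protein (-0.65 and 0.86), and neither was called in the SE contrast.

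ER bodies are compartments of the endoplasmic reticulum that store the beta-glucosidase PYK10, and NAI2 is needed to form them. NAI2 had signals of 539.5 and 541 in Col-0, 193 and 277 in ago1-27, 279.9 and 453 in se-1, and 776 and 672 in the MIR156 line. The 2 mutants lay below Col-0 and the MIR156 line above it, with no overlap of either with Col-0. Its SE contrast was 0.50 (SE 0.158, adjusted p = 0.0900) and was not called. Among members with a listed gene, NAI2 is the only one in a list of 18 ER body genes, of which 7 have a listed probe set and were tested. Of these 7, 5 were called lower in ago1-27 than in Col-0, 4 higher in the MIR156 line than in se-1, and 6 higher in the SE contrast, beside 0.911%, 0.22% and 3.47% of all probe sets; the medians were -1.73, 1.11 and 0.99. The 5 were NAI2, PYK10, JAL22, JAL33 and JAL34 and the 4 were the same without NAI2, all of which met the rule on these contrasts, so nothing is read from those 2 counts. The 6 were PYK10, JAL22, JAL33, JAL34, NAI1 and JAL23. For the first 4 of these, the low ago1-27 and high MIR156 signals of the rule raise the SE contrast by arithmetic. The list was also chosen with earlier results of these data known, so nothing is read from this count either.

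PYK10 and the jacalin-related lectin genes JAL22, JAL33 and JAL34, whose proteins occur in complexes with PYK10, meet the thresholds and were set aside by name. Their falls in ago1-27 were -3.24, -2.40, -2.08 and -1.73, each larger than that of NAI2 (-1.17), and their rises with the transgene were 1.28, 1.11, 1.18 and 1.40 beside 0.99. NAI1, the transcription factor that activates ER body genes, did not share the pattern: its signal was 66.4 and 52.6 in Col-0, 53.1 and 63.1 in ago1-27, 105 and 111 in se-1, and 108 and 96.5 in the MIR156 line. JAL23 had a difference of 0.51 in ago1-27 and of -0.07 with the transgene, so it also lacked the pattern. The change was therefore not shared by every ER body gene measured.

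Other jacalin-type lectin genes are members and differed among themselves. AT1G52100 had 71.6 and 78.6 in Col-0, 4.43 and 70.8 in ago1-27, 80.5 and 89.3 in se-1, and 139 and 221 in the MIR156 line. Its fall rests on ago1-27 replicate 1, since replicate 2 was just below Col-0, and its SE contrast of 1.17 (adjusted p = 0.0434) was lost in 7 of the 8 fits that left out 1 array. AT1G73040 had 58.8 and 51.5 in Col-0, 2.15 and 6.56 in ago1-27, 27.6 and 2.56 in se-1, and 20.4 and 24.4 in the MIR156 line. All arrays of the 3 other genotypes lay below Col-0, and both ago1-27 arrays and 1 se-1 array were within background.

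Glucosinolates are sulfur-rich defence compounds of the cabbage family, and GTR1 is a transporter that loads them into the phloem. GTR1 had signals of 315 and 299.6 in Col-0, 158 and 206 in ago1-27, 307 and 249 in se-1, and 318 and 462 in the MIR156 line. The ago1-27 arrays lay below all other arrays, while se-1 and Col-0 overlapped, and the SE contrast was 0.44 (adjusted p = 0.114). Its partner GTR2, set aside by name, had differences of -1.07 and 0.86. Of 31 aliphatic glucosinolate genes in the list, only 5 have a listed probe set, and none of these is a member. Whether any of the 103 members with no listed gene belongs to this list cannot be told here. Only 4 genes of the list were tested: BCAT4, GSTU20, AT2G31790 and UGT74B1. All 4 had negative differences in ago1-27, from -0.52 to -0.28, and positive differences with the transgene, from 0.34 to 0.62, short of the rule's threshold for ago1-27. The other list gene with a probe set, AOP3, was too dim to be tested, lay within background on both ago1-27 and both se-1 arrays, and had differences of -0.91 and -0.12. None of the 4 was called in either contrast, and BCAT4, the aminotransferase at the start of the pathway, was called in the SE contrast (0.49, adjusted p = 0.0307).

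Among defence-type proteins, AT4G11190 encodes a dirigent protein, a family that steers the coupling of lignans. Its signal was 169 and 120.3 in Col-0, 24.4 and 13.4 in ago1-27, 79.5 and 105 in se-1, and 230.2 and 264 in the MIR156 line. The 4 genotypes did not overlap, and 1 ago1-27 array was within background. The SE contrast was 1.18 (SE 0.167, adjusted p = 0.000574). Against Col-0, se-1 lay at -0.56 and the MIR156 line at 0.72. The contrast thus rests largely on the ago1-27 fall of -2.20 that chose this member. ChiC, a class V chitinase, had 61.6 and 80.1 in Col-0, 23.9 and 36.8 in ago1-27, 39.6 and 74.4 in se-1, and 131 and 142 in the MIR156 line. Its SE contrast of 0.72 (adjusted p = 0.0356) was lost in 6 of the 8 fits that left out 1 array. PR-1-LIKE, a relative of the pathogenesis-related protein PR1, had 41.9 and 49.5 in Col-0, 1.56 and 8.74 in ago1-27, 28.5 and 21.8 in se-1, and 51.7 and 45.2 in the MIR156 line, a return to the Col-0 range with no call in the SE contrast (0.52, adjusted p = 0.189). Both PR-1-LIKE signals in ago1-27 and 1 in se-1 were within background.

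**Figure D4:**
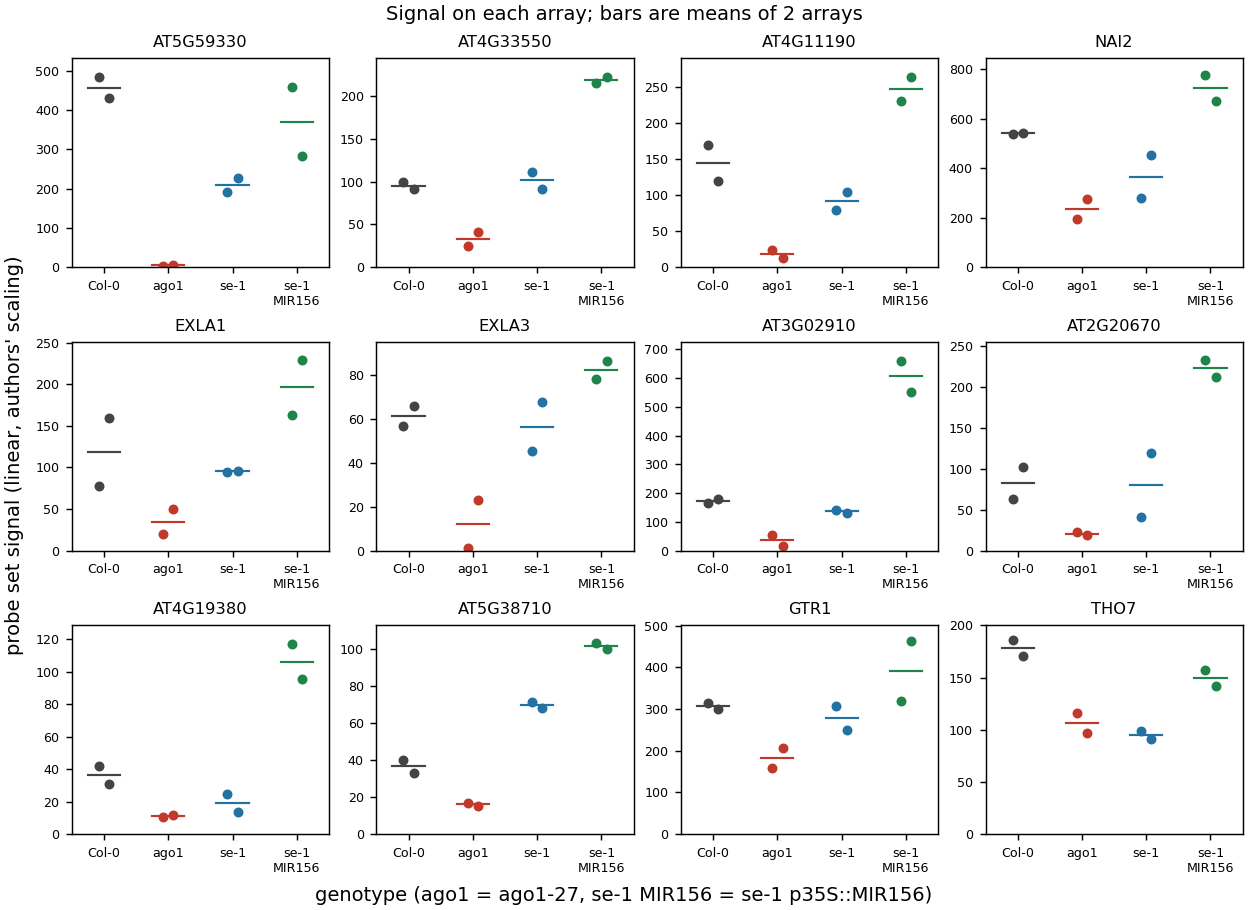
Linear probe set signal on the vertical axis for 12 members, with the 4 genotypes on the horizontal axis; points are the 2 arrays of a genotype and bars their mean. AT5G59330 falls to 3.82 and 4.99 in ago1-27, AT3G02910 reaches 661 and 554 in the MIR156 line, AT5G38710 is already above Col-0 in se-1, and THO7 stays below Col-0 in se-1 and the MIR156 line.

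Several members are enzymes of oxidation and stress metabolism. AT1G31710, a copper amine oxidase that breaks down polyamines, was measured by 2 probe sets that gave like courses. On the brighter, signals were 1358 and 1544 in Col-0, 577 and 740.0 in ago1-27, 1687 and 1575 in se-1, and 2356 and 2302 in the MIR156 line. On the dimmer they were 149 and 155 in Col-0, 69.5 and 103 in ago1-27, 188 and 143 in se-1, and 255 and 316 in the MIR156 line. The MIR156 arrays were above all others on both probe sets, and the SE contrasts were 0.99 (adjusted p = 0.000112) and 0.84 (adjusted p = 0.00424).

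AT5G38710, a proline dehydrogenase, was the listed gene with the highest se-1 level relative to Col-0. Its signal was 40.1 and 33.2 in Col-0, 16.7 and 15.4 in ago1-27, 71.7 and 68.2 in se-1, and 103 and 100.05 in the MIR156 line. The 4 genotypes did not overlap, both ago1-27 arrays were within background, and the SE contrast was 1.29 (SE 0.166, adjusted p = 0.000247). Other members of this kind were the metallothionein MT1C, the methionine sulfoxide reductase MSRB5 and the ascorbate oxidase AT5G21105, with falls of -0.77, -0.70 and -0.68, rises of 0.41, 0.68 and 0.67, and no call in the SE contrast. GSTU23, a glutathione S-transferase, was too dim to be tested. It was within background on both ago1-27 arrays, and also on 1 Col-0 and 1 se-1 array.

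The regulators and cell maintenance genes were grouped after their values were seen. None of these 7 was called in the SE contrast, beside 41.2% of all tested members and 3.47% of all probe sets called higher. UBC16, a ubiquitin-conjugating enzyme, had 110.4 and 77.9 in Col-0, 41.9 and 35.6 in ago1-27, 61.7 and 82.1 in se-1, and 121 and 112 in the MIR156 line. None of the 10 other ubiquitin-conjugating enzyme probe sets with a symbol had a fall of 0.6 in ago1-27. THO7, a subunit of the THO complex that couples transcription to RNA export and acts in small RNA production, had 186 and 171 in Col-0, 116 and 97.2 in ago1-27, 98.9 and 91.5 in se-1, and 157 and 142 in the MIR156 line. Both mutants lay below Col-0 and the MIR156 line came part of the way back, with an SE contrast of -0.19 (adjusted p = 0.515). The 3 other THO complex genes measured, THO1, THO5 and TEX1, had ago1-27 differences of 0.11, 0.64 and 0.01, so no other subunit met the rule.

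The beta tubulin gene TUB1 had 229 and 285 in Col-0, 154 and 137 in ago1-27, 183 and 212 in se-1, and 295 and 317 in the MIR156 line. Among the 4 other beta tubulin genes measured, TUB9 had a difference of -0.60 in ago1-27 but of only 0.22 with the transgene, and TUB5, TUB6 and TUB7 lay between -0.33 and 0.18. TET2, a tetraspanin membrane protein, had differences of -0.72 and 0.58, and bZIP42, a transcription factor, of -0.68 and 1.02. The isoleucyl-tRNA synthetase gene AT4G10320 had -0.63 and 0.41, and the threonine synthase gene AT1G72810 had -0.64 and 0.59. Among members with a listed gene, the only chloroplast-encoded one was psbC, a core protein of photosystem II. Its signal was 873 and 1185 in Col-0, 630.4 and 523 in ago1-27, 944 and 851 in se-1, and 1197 and 1275 in the MIR156 line.

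AT3G02910, of the AIG2-like family, had the largest difference with the transgene. Its signal was 165 and 179.8 in Col-0, 54.6 and 16.2 in ago1-27, 141 and 133 in se-1, and 661 and 554 in the MIR156 line. The MIR156 arrays stood far above all others, and the SE contrast was 1.70 (SE 0.196, adjusted p = 0.0001). It lies on chromosome 3 with 3 protein-coding genes between it and THO7, and the courses of the neighbours differed, since THO7 stayed below Col-0.

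AT2G20670, a gene of the DUF506 family, had 63.0 and 102 in Col-0, 22.3 and 19.4 in ago1-27, 41.8 and 119 in se-1, and 233 and 213 in the MIR156 line. Its se-1 arrays differed widely and spanned the Col-0 range, and the SE contrast was 1.29 (adjusted p = 0.00329). AT1G03620, of the ELMO/CED-12 family, had 135 and 111 in Col-0, 59.9 and 47.2 in ago1-27, 152 and 187 in se-1, and 329 and 242 in the MIR156 line, with no overlap between the genotypes and an SE contrast of 1.26 (adjusted p = 0.000131). AT5G19110, an aspartyl protease family gene, had 107 and 77.9 in Col-0, 45.2 and 11.4 in ago1-27, 118 and 135 in se-1, and 355 and 159 in the MIR156 line. All 4 genotypes were again separate, with wide spread in ago1-27 and the MIR156 line, and the SE contrast was 1.52 (adjusted p = 0.00203).

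AT2G44670, which encodes a small FLZ zinc finger protein, had 500.0 and 524 in Col-0, 252 and 288 in ago1-27, 406 and 504 in se-1, and 972 and 789.7 in the MIR156 line, and its SE contrast was 0.74 (adjusted p = 0.00314). AT5G10580 had an SE contrast of 1.02 (adjusted p = 0.00308), with both ago1-27 arrays within background and at least 2.66-fold below Col-0. Other members with large falls were AT3G20370, a TRAF-like domain gene (-1.64 and 0.90), and AT3G57010, a strictosidine synthase-like gene (-1.41 and 0.83), both within background in ago1-27 and not called in the SE contrast. A nitrate and peptide transporter family gene, AT3G45680, was called (0.64, adjusted p = 0.0258), and its call was lost in 6 of the 8 fits that left out 1 array.

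**Figure D5:**
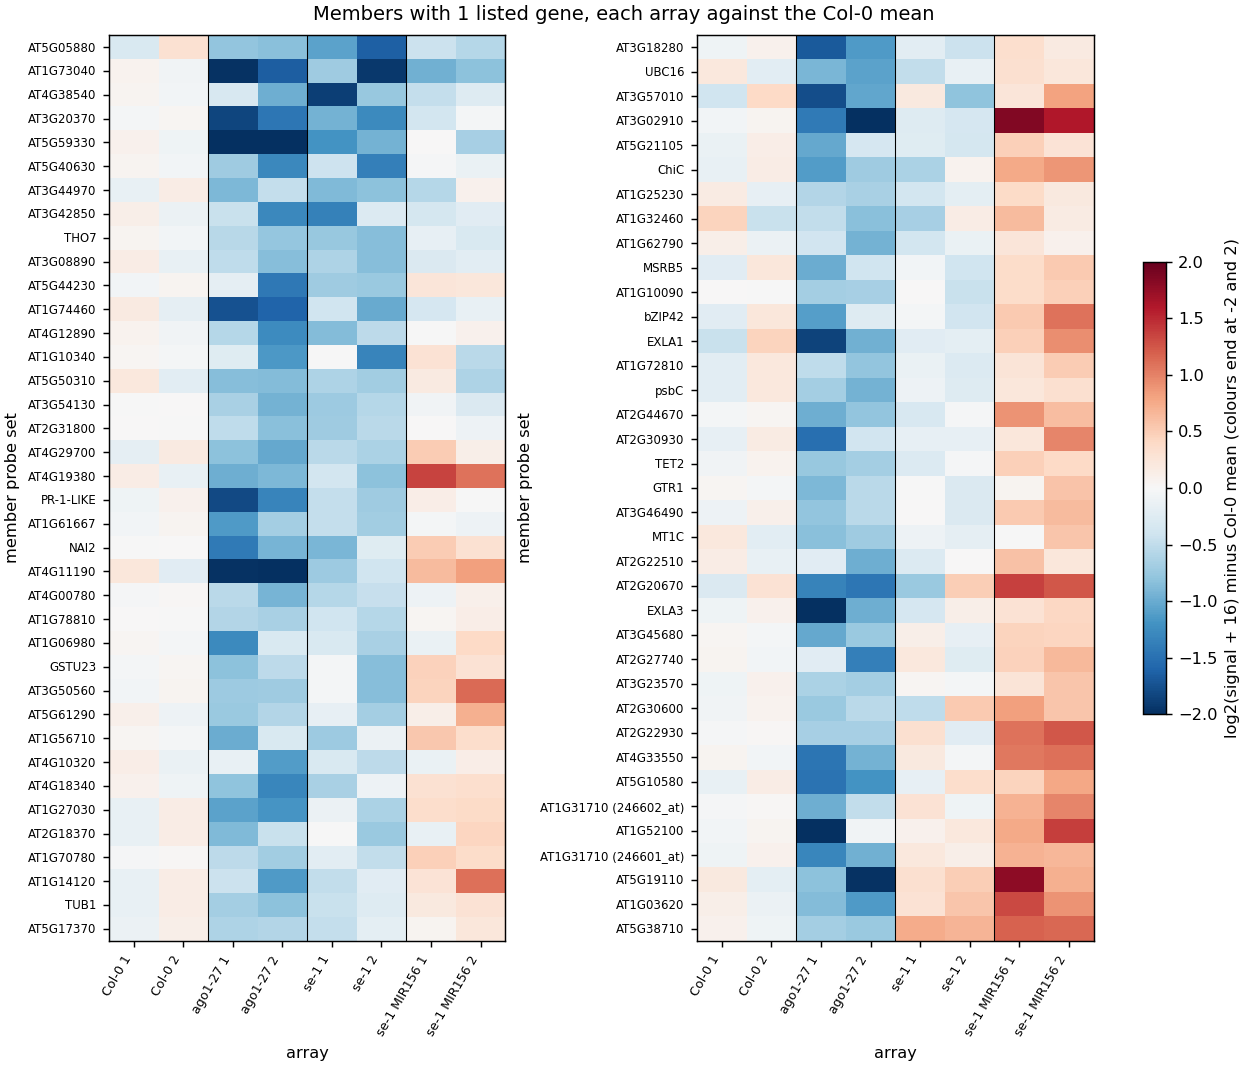
Rows are the 75 member probe sets with 1 listed gene, ordered by se-1 minus Col-0, and columns the 8 arrays; colour is log2(signal + 16) minus the Col-0 mean, blue for lower and red for higher, with colours ending at -2 and 2. The ago1-27 columns are mostly blue and the MIR156 columns mostly pale or red, while se-1 runs from blue (AT5G05880 at -1.35) to red (AT5G38710 at 0.71).

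The 103 members with no listed gene had a median fall of -0.91 and a median rise of 0.62, beside -0.80 and 0.66 for those with a gene. Of 100 tested, 47 were called higher in the SE contrast, and of the 70 tested members with a gene, 23 were, beside 3.47% of all probe sets; the difference between these shares was not tested. A probe set with no listed gene had the largest SE contrast of all members. Its signal was 557 and 559 in Col-0, 148 and 152 in ago1-27, 783 and 703 in se-1, and 1779 and 1412 in the MIR156 line, with a contrast of 1.83 (SE 0.122, adjusted p = 7.63e-07). The 4 genotypes did not overlap. The only member called lower, also with no listed gene, was at 4046 and 3324 in Col-0, 2355 and 1902 in ago1-27, 1452 and 1833 in se-1, and 2273 and 2451 in the MIR156 line (-0.50, adjusted p = 0.0238), where every other genotype lay below Col-0.

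In 2 genes a second probe set went against membership. For AT1G10090 the member had differences of -0.67 and 0.65 and the other probe set 0.11 and 0.27. For AT2G30600 the member had -0.64 and 0.68 and the other -0.13 and 0.38, and the other probe set was the brighter in both genes. The fall of these 2 genes in ago1-27 thus depends on the probe set read.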

How the data were processed

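Transcript levels were measured on Affymetrix ATH1 arrays in 4 genotypes with 2 arrays each. Per the labels and values, the authors deposited 1 linear signal (intensity) per probe set and array. The submitters' processing notes name GCOS, with no version; how the signals were computed is not given in the sources used here. The authors' scaling left a trimmed mean of 200.02 on every array. Signals were transformed as log2(signal + 16), which understates changes of dim transcripts, with no further normalization. The 64 control probe sets and the lowest 30% by mean were left out, so 15922 of 22746 were tested, 170 of the 178 members among them. limma 3.58.1 in R 4.3.3 fitted 1 mean per genotype to all 8 arrays (eBayes with a trend, 4 residual and 11.27 prior degrees of freedom), two-sided, with Benjamini-Hochberg adjustment over all probe sets tested. The procedure was tested on simulated data. Where both arrays of a genotype were within background, at or below the highest bacterial control signal of the array, folds are lower bounds, ratios of geometric means against that signal. With 2 arrays per group, their number limits the precision.

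The members and the gene lists were chosen with earlier results of these data known. Genes named were, among members with 1 listed gene, the 14 with the largest sum of fall and rise, up to 12 called in the SE contrast in each direction by p, up to 4 members of each gene list, probe sets at the rule's thresholds and 2 members with no listed gene; the others named and the grouping by role were chosen after their values were seen. Of 26 lists with 332 genes, few genes had a listed probe set, and only the ER body list holds a member with a listed gene. The reference table of assembly TAIR10.1 gave names and neighbours.

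Other pseudocounts, filters, variance models and normalization, a replicate block and each array left out were tried. Deviations of same-numbered arrays correlated between -0.21 and 0.11 across probe sets. Whether same-numbered arrays shared a growth or harvest batch is not stated in the labels, and these values cannot settle it.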

Additional observations from a re-analysis of the deposited data

How the results depend on the processing

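The count of members called higher in the SE contrast, 70, was 45 with no filter on dim probe sets and between 55 and 71 under the 8 other settings. Leaving out 1 array gave 45 to 72, the lowest without Col-0 replicate 1, and the contrast then shares some error with the differences that chose the members. All 825 calls, of both directions, became 443 with no filter and 614 to 870 under the others. Leaving out 1 array gave 382 to 818, with 382 without Col-0 replicate 1, 422 without MIR156 replicate 2 and 453 without MIR156 replicate 1; the cause was not tested. With the replicate block 71 members and 825 probe sets were called, 62 members in place of 60 in ago1-27 against Col-0, and 14 in place of 13 in the MIR156 line against se-1. The block ended the SE call of AT3G46490 (adjusted p = 0.0581).

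Of 24 probe sets followed singly, 12 kept their call under all 9 settings (or all 8, where the stricter filter left the probe set out) and without each array: AT5G59330, AT4G11190, AT3G02910, AT5G19110, AT2G20670, AT5G10580, AT4G33550, both of AT1G31710, AT1G03620, AT2G44670 and AT5G38710. No direction reversed. The call of the only member lower in this contrast ended without a trend (adjusted p = 0.0900), with no filter (0.0862) and without 5 of the 8 arrays. Membership depends on the scale: pseudocount 1 gave 260 members, pseudocount 64 gave 69, quantile normalization 203, of which 168 are shared, and thresholds of 0.8 and 0.6 gave 63. Without 1 array, 141 to 157 of the 178 members stayed within both size thresholds.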
